A study of Mus musculus with 3 samples.

Results

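Runx3 is a transcription factor of the RUNX family that natural killer (NK) cells use during maturation and activation. Here its binding was described far from genes: the peaks whose midpoint lay 50 kb or more from the nearest annotated transcript start, counting every transcript of the GENCODE M1 annotation on the mouse build mm9. These far peaks numbered 1341 of 15524 Runx3 peaks (8.64%). The remaining peaks lay under 1 kb from a start (6072), at 1 to 5 kb (2449) or at 5 to 50 kb (5662). The 2 peaks just inside the limit, on chromosomes 6 and 14, lay 50.008 and 50.014 kb from a start. The 2 just outside it, on chromosomes 15 and 1, lay at 49.901 and 49.923 kb.

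The data came from chromatin immunoprecipitation and sequencing of resting NK cells taken fresh from the spleens of ICR mice, with no allele or treatment that set groups apart. Chromatin was precipitated with an in-house polyclonal antibody to Runx3 or with one to H3K4me1, the monomethylated form of histone H3 at lysine 4, and non-immune rabbit serum served as the control. GEO holds 1 sample for each of the 3 precipitations, and the peaks were deposited as 1 list of coordinates per antibody, with no heights or scores. The study's methods say that repeat precipitations were joined before peak calling, while the labels call each sample a first precipitation, and which applies to the deposited lists was not settled. Either way replicate spread is unknown, no test was run, and intervals given here (95%) cover counting error over regions only. The series holds no expression data, so the NK identity of the cells could not be checked against marker genes, and the depth behind a single peak cannot be read from coordinates.

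RUNX proteins bind a short DNA sequence, searched here in the form TGTGGT, in the form TGTGGC with another last base, in the form TGCGGT with a cytosine inside and in the form TGCGGC with both changes. They often occupy it beside other lineage factors such as those of the ETS and T-box families. Enhancers, the elements that act on promoters over distance, commonly carry H3K4me1 on the nucleosomes beside the bound factors. Genes that define a cell's identity are often set in gene-poor surroundings and are served by many such elements at once, so a peak far from a start is hard to assign to a gene by position alone.

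The sequences below are 100-bp windows around the midpoints of far peaks, 1 for each of 7 genes that were nearest to many of them. For each gene the peak with the most RUNX sequences in its central 200 bp was taken, and matches on either strand are in capitals. They are shown because they carry the sequence that the antibody's target is known to bind, at 104 to 230 kb from the nearest start of the named gene. All are read on the plus strand of mm9.
Id2, chr12:25935017-25935116: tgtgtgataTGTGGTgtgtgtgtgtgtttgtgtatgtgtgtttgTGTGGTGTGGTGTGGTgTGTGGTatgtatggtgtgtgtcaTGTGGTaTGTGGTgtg
Ets1, chr9:32734032-32734131: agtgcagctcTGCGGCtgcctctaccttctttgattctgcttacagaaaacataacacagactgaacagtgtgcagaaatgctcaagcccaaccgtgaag
Btg1, chr10:96183835-96183934: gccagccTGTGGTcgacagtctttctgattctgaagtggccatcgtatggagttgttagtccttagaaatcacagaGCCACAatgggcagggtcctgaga
Rplp1, chr9:61555811-61555910: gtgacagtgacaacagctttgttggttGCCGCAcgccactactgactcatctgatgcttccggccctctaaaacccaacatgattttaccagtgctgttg
Tab2, chr10:7896432-7896531: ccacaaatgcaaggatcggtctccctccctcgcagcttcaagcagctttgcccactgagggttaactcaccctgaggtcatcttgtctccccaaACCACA
Amigo2, chr15:97186552-97186651: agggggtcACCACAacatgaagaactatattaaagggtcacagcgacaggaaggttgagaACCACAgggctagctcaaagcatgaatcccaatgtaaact
Lpp, chr16:24215623-24215722: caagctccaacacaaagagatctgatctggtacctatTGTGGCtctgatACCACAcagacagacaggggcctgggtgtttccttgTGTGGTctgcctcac
The Id2 window held 7 matches, some of them overlapping, inside a run of alternating T and G, whereas the Lpp window held 3 in surroundings with no such run. The window chosen in the same way at Runx3 itself, 50.632 kb from its start, held no match within its 100 bp and is not printed.

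A RUNX sequence on either strand was present in 1255 of the 1341 far peaks (93.6%, 92.1 to 94.8). So short a sequence is common in any DNA of this width, so each was set beside an equally wide window 5 kb downstream that touched no Runx3 peak. Over the 1271 far peaks with such a window, 93.4% of peaks and 70.7% of windows (68.2 to 73.2) held a match, a difference of 22.7 percentage points (19.8 to 25.5). Restricting both to their central 200 bp gave 76.0% and 26.6%. Far peaks held 3.31 RUNX sequences per kb against 1.67 in the windows, and 49.7% of peaks against 17.2% of windows held 3 or more. The median GC content was 45.7% in these peaks and 44.2% in the windows.

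The form of the sequence differed in prominence. TGTGGT was found in 79.7% of far peaks and 47.4% of windows, and TGTGGC in 57.4% and 42.8%. The CpG-containing forms were rarer, TGCGGT in 14.6% of far peaks and 5.19% of windows, and TGCGGC in 9.05% and 5.66%. At 5 to 50 kb TGTGGT was in 79.0% of peaks and 50.6% of windows, and TGCGGC in 11.8% and 6.89%. Among peaks under 1 kb from a start the forms lay closer together, with TGCGGC in 48.4%, then TGTGGC in 47.9%, and TGTGGT in 45.1% followed by TGCGGT in 36.7%. In the windows of these peaks TGTGGT was more frequent than in the peaks, at 53.9%. The other forms were less frequent there, TGTGGC at 43.3%, TGCGGC at 6.71% and TGCGGT at 6.52%. The median GC content of peaks under 1 kb from a start was 58.0%, against 45.8% over all far peaks.

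Sequences of partner families were also more frequent in far peaks than in their windows. An ETS sequence (AGGAAGT or, with another leading base, CGGAAGT) was present in 41.5% of far peaks and 22.0% of windows, a difference of 19.6 points (16.0 to 23.1). The AP-1 sequence (TGACTCA or its reverse complement, TGAGTCA) stood at 21.2% and 13.9%, and the T-box sequence TCACACCT at 8.81% and 4.41%. With windows on the upstream side instead, the T-box sequence was in 8.92% of far peaks and 2.11% of windows, so the size of its excess, 4.41 or 6.81 points, depended on the side chosen. A RUNX and an ETS sequence lay within 50 bp of each other in 20.2% of far peaks (18.1 to 22.5) and 3.15% of windows (2.32 to 4.26). The same pairing was seen in 14.5% of peaks under 1 kb from a start, 17.4% of those at 1 to 5 kb and 19.3% of those at 5 to 50 kb. The matches are letters found in a window and were not tested as binding sites.

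The far peaks were spread over a wide range of distances. Their midpoints lay 50.008 to 807 kb from the nearest start, with a median of 85.9 kb (82.9 to 89.4) and an interquartile range of 62.3 to 132 kb. The start nearest to 949 of them (70.8%) belonged to a protein-coding gene, and the rest were nearest to pseudogenes or to noncoding RNA genes, apart from 2 next to immunoglobulin variable segments. Measured to protein-coding genes alone, the median distance was 99.7 kb.

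Sequence 50 kb or more from a start amounted to 946 Mb, and Runx3 peaks were sparse in it. It held 1.42 peaks per Mb (1.34 to 1.496), against 4.76 per Mb at 5 to 50 kb, 7.78 at 1 to 5 kb and 57.3 within 1 kb. The density kept falling inside the far sequence, from 2.37 per Mb at 50 to 75 kb to 1.24 at 100 to 200 kb and 0.283 (0.201 to 0.387) beyond 300 kb. H3K4me1 regions thinned out in the same order, from 9.18 to 4.80 and 1.14 per Mb over the same 3 distance bins.

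**Figure D1:**
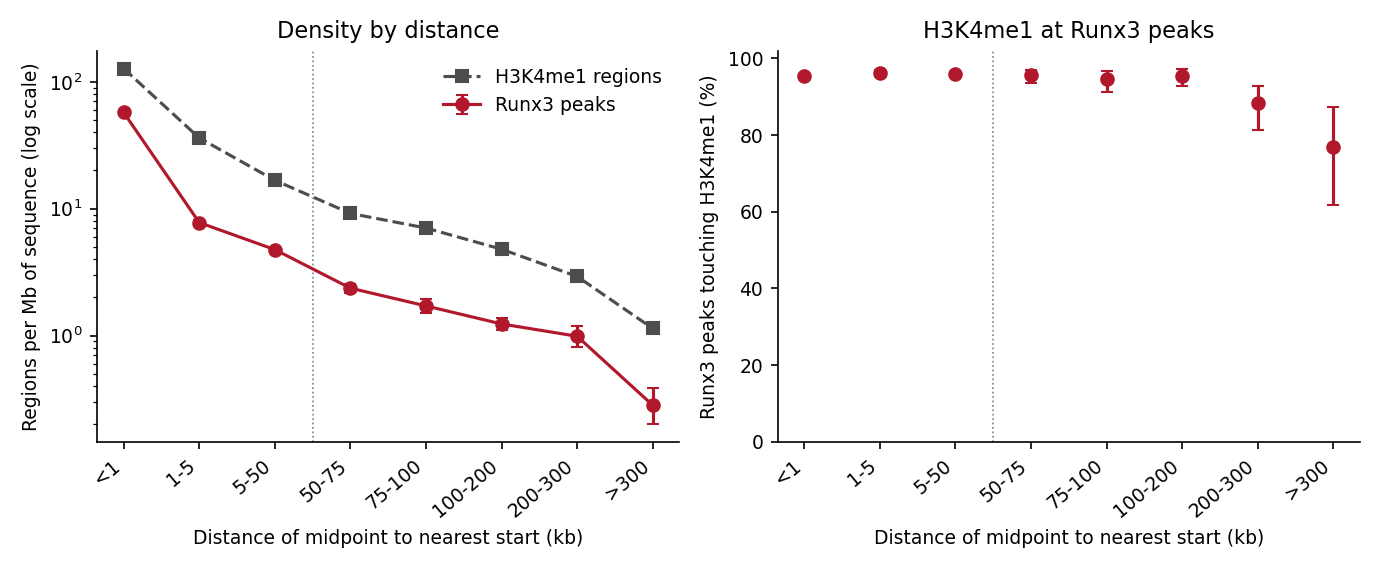
Left, Runx3 peaks (circles, with 95% Poisson intervals) and H3K4me1 regions (squares) per Mb of sequence on a log scale, by distance of the midpoint to the nearest transcript start in kb, with the 50 kb limit dotted. Right, percent of Runx3 peaks that touched an H3K4me1 region at the same distances, with 95% Wilson intervals. Density fell from 57.3 peaks per Mb within 1 kb to 0.283 beyond 300 kb, and the share with H3K4me1 stood at 94.6% to 96.3% up to 200 kb and at 76.9% beyond 300 kb.

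Chromosomes differed in how densely their far sequence was occupied. Chromosome 10 had 120 far peaks, 2.26 per Mb (1.87 to 2.70), and chromosomes 13 and 9 had 2.10 and 2.03 per Mb. Among the autosomes chromosome 11 had the fewest, 17 far peaks and 0.729 per Mb (0.425 to 1.17), and chromosome 16 had 0.749 per Mb. The X chromosome stood apart with 5 far peaks in 42.1 Mb, 0.119 per Mb (0.0386 to 0.277). Far H3K4me1 regions were likewise most dense on chromosome 10, at 8.53 per Mb, and least dense on the X chromosome, at 0.879 per Mb.

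The far peaks themselves were of ordinary size. Their widths ran from 327 to 2092 bp with a median of 811 bp (801 to 822), next to 825 bp over all Runx3 peaks. The 5 widest were 2092 bp on chromosome 12 (chr12:70547329-70549420), 1944 bp in an intron of Cdyl2, 1905 bp nearest to Tle4, 1895 bp on chromosome 14 nearest to the predicted gene Gm6219, and 1841 bp nearest to Ubl3. Tle4 encodes a Groucho-family corepressor that RUNX proteins are known to recruit. Each of the 5 touched an H3K4me1 region, of 3653 to 10500 bp, and held 4 to 7 RUNX sequences.

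At the other extreme stood the 5 peaks farthest from any start. The farthest, chr19:49122220-49122798, lay 807 kb from a start with Sorcs3 as the nearest protein-coding gene, was 579 bp wide, touched no H3K4me1 region and held no RUNX sequence. The other 4 lay on chromosome 12 at 518 to 580 kb, in a gene desert between Sel1l and Gm9726. All 4 touched an H3K4me1 region, of 1519 to 3150 bp, and held 1 to 3 RUNX sequences.

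Most far peaks were marked by H3K4me1. Of the 1341, 1263 (94.2%, 92.8 to 95.3) overlapped the H3K4me1 list by 1 bp or more, against 95.7% of all Runx3 peaks. The share was 96.1% at 5 to 50 kb, a difference of -1.88 percentage points (-3.34 to -0.625). It fell within the far peaks at the largest distances, from 95.5% at 100 to 200 kb to 88.3% (81.4 to 92.9) at 200 to 300 kb and 76.9% (61.7 to 87.4) beyond 300 kb, the last of these resting on 39 peaks.

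The position of the peak in the mark also set far peaks apart from promoters. The midpoint of the peak was inside an H3K4me1 region in 93.6% of far peaks and in 66.2% of peaks under 1 kb from a start, a difference of 27.4 points (25.5 to 29.1). At 5 to 50 kb the share was 95.2%. On a scale from 0 at the edge of the region to 1 at its centre, the median far peak that lay inside sat at 0.757, next to 0.748 at 5 to 50 kb and 0.369 within 1 kb.

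The 78 far peaks without H3K4me1 differed from the rest in more than the mark. Their median width was 576.5 bp (552 to 600) against 820 bp (810 to 833), and 71.8% (61.0 to 80.6) held a RUNX sequence against 94.9% (93.6 to 96.0) of the marked ones. The narrower peaks have fewer bases in which to hold a match. The nearest H3K4me1 region lay a median of 89.5 kb away, over 50 kb for 47 of the 78 and within 2 kb for 5. A near-identical copy elsewhere in the genome (95% identity over 50% of the peak) was found for 1 of the 78 and for 4 of the marked peaks.

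The 1263 marked far peaks touched 1065 distinct H3K4me1 regions. These had a median width of 3556 bp (3423 to 3701), an interquartile range of 2447 to 5336 bp and extremes of 514 and 64550 bp. Far H3K4me1 regions without a Runx3 peak, 4106 in number, had a median of 1540.5 bp (1519 to 1569). Regions touched by peaks at 5 to 50 kb had a median of 3744.5 bp and those touched within 1 kb one of 1937 bp. Very broad regions took a middle share at far peaks: 12.9% of far peaks lay in a region of 10 kb or more, against 20.7% at 5 to 50 kb, a difference of -7.80 points (-9.80 to -5.63). Under 1 kb from a start the share was 4.87%, and far peaks exceeded it by 8.03 points (6.24 to 9.99). Beyond the limit the width changed little with distance, from a median of 3469 bp at 50 to 75 kb to 3787.5 bp at 100 to 200 kb and 3168 bp (2243 to 3843) beyond 300 kb.

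Seen from the mark, 1051 of 5157 far H3K4me1 regions (20.4%, 19.3 to 21.5) touched a Runx3 peak, against 28.6% of all H3K4me1 regions. The share went up with width in each step, from 2.66% of far regions under 1.5 kb to 16.8% at 1.5 to 3 kb, 53.8% at 3 to 6 kb, 77.7% at 6 to 10 kb and 95.7% (88.1 to 98.5) of the 70 that reached 10 kb. A wider region has more bases in which a peak can fall, and this was not adjusted for. In the same width bins, regions at 5 to 50 kb gave 4.21%, 17.7%, 46.7%, 72.2% and 84.4%. Narrow regions within 1 kb of a start stood apart from these, since 36.2% of those under 1.5 kb touched a peak.

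**Figure D2:**
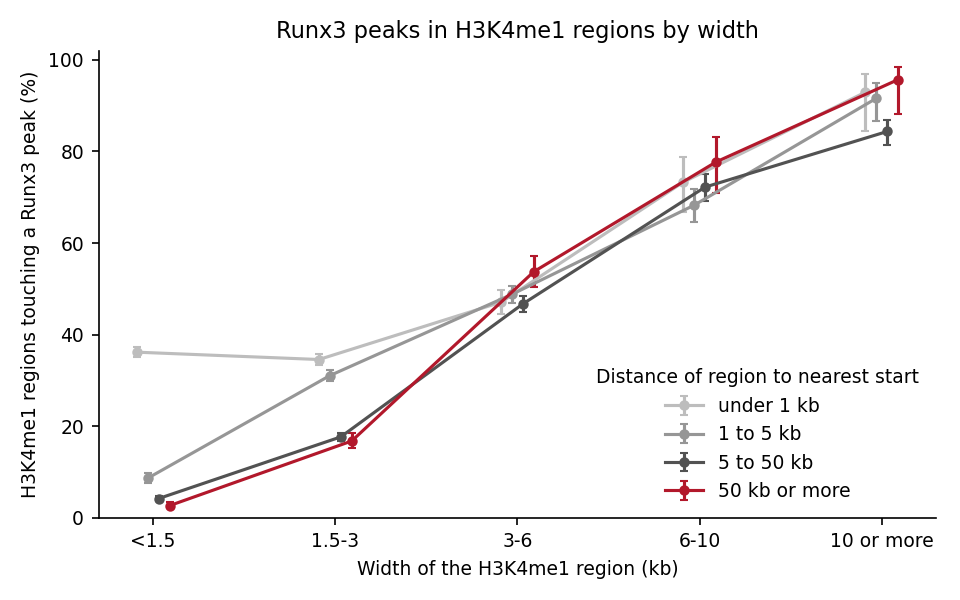
Percent of H3K4me1 regions that touched a Runx3 peak, by width of the region in kb, with 1 line for each class of distance from the region's midpoint to the nearest start and 95% Wilson intervals. The line of regions 50 kb or more from a start (red) rose from 2.66% under 1.5 kb to 95.7% at 10 kb or more, while narrow regions within 1 kb of a start were already at 36.2%.

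The 5 widest H3K4me1 regions that touched a far peak lay in gene bodies. The widest, of 64550 bp at chr11:11588563-11653112 in Ikzf1, which encodes the lymphoid factor Ikaros, touched 8 Runx3 peaks, 1 of them far at 50.1 kb. The next, of 42771 bp at chr1:54889692-54932462 in Ankrd44, touched 4 peaks and all were far, at 54.9 to 72.7 kb. A region of 34255 bp in Ankrd11 held 2 far peaks of 4, and one of 31918 bp in Pik3ap1, an adaptor of phosphoinositide 3-kinase, held 2 of 6. A region of 27551 bp in Bcl2, the inhibitor of apoptosis, held 3 far peaks and no others, at 59.1 to 73.9 kb.

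A peak can lie 50 kb or more from a start only where neighbouring starts are at least 100 kb apart, and mm9 held 5898 such intervals. Far peaks occupied 661 of them, 11.2% (10.4 to 12.0), and 2 further far peaks lay at chromosome ends, outside the outermost starts. The intervals were filled unevenly. A single far peak was found in 403 intervals, whereas 59 intervals with 5 or more held 411 far peaks, 30.6% of the total.

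The share of occupied intervals depended on length. It was 7.94% for intervals of 100 to 200 kb, 14.9% at 200 to 500 kb, 18.7% at 500 to 1000 kb and 12.4% (7.78 to 19.2) at 1000 kb or more. The density of peaks in the far part of these intervals ran the other way, from 3.17 per Mb (2.87 to 3.49) to 1.66, 0.883 and 0.297 per Mb (0.217 to 0.396). The largest deserts were mostly empty: of 129 intervals of 1000 kb or more, 113 held no far peak and 96 of those held no far H3K4me1 region either. The share of far peaks with H3K4me1 was 97.8% (95.9 to 98.8) in the shortest class and 87.0% (74.3 to 93.9) in the longest.

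Intervals with far peaks were largely those with far H3K4me1. This follows largely from the overlap given above, since 1263 of the 1341 far peaks touched the mark. Of 1509 intervals with at least 1 far H3K4me1 region, 620 (41.1%, 38.6 to 43.6) held a far peak, while 41 of the 4389 intervals without such a region did. Occupied intervals were longer, with a median length of 232 kb (222 to 250.1) against 172 kb (168 to 176) for those without a far peak. A longer interval has more far sequence in which a peak can lie, and these medians were not adjusted for it.

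**Figure D3:**
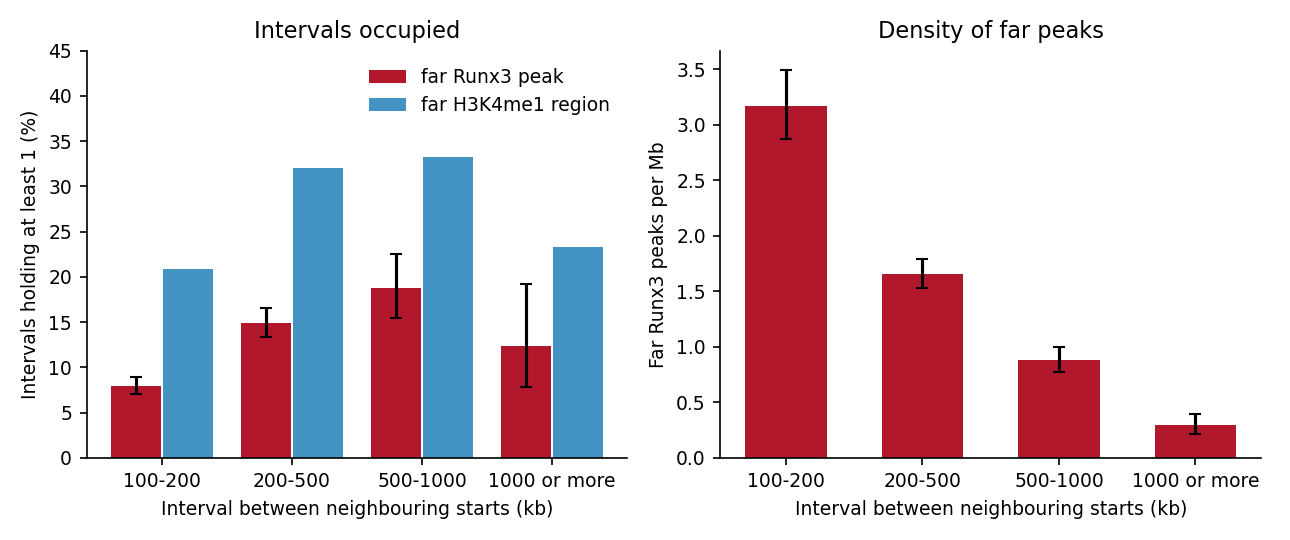
Left, percent of intervals between neighbouring transcript starts that held at least 1 far Runx3 peak (red, with 95% Wilson intervals) or at least 1 far H3K4me1 region (blue), by length of the interval in kb. Right, far Runx3 peaks per Mb of far sequence in the same intervals, with 95% Poisson intervals. Occupied intervals went from 7.94% in the shortest class to 18.7% at 500 to 1000 kb, while the density of peaks fell from 3.17 to 0.297 per Mb.

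The interval with the most far peaks, 592 kb long and next to Id2 on chromosome 12 (25780957 to 26372666), held 25 far peaks and 41 far H3K4me1 regions. The 505 kb between Tle3, another Groucho corepressor, and Rplp1 on chromosome 9 held 14 far peaks, and 238 kb between Ctdp1 and Nfatc1 held 13. The interval of 1032 kb downstream of Ets1 held 13 and the 563 kb between Tab2 and Ust on chromosome 10 held 12. Every far peak in the 5 fullest intervals touched an H3K4me1 region.

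Far peaks often came in groups. Chained so that each midpoint lay in the 25 kb stretch centred on its neighbour's, 556 far peaks (41.5%, 38.9 to 44.1) fell into 219 clusters of 2 or more, and 785 stood alone. Of the clusters 150 were pairs, 43 held 3 far peaks, and 26 held 4 or more with 127 far peaks between them. The median cluster spanned 6.97 kb, and in 104 of the 219 (47.5%) all far peaks touched the same H3K4me1 region. The median distance to the next Runx3 peak of any kind was 17.3 kb, and 236 far peaks (17.6%) had none within 100 kb.

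Clustered far peaks were more often marked, and by wider regions. H3K4me1 was touched by 552 of 556 clustered far peaks (99.3%, 98.2 to 99.7) and by 711 of 785 single ones (90.6%, 88.3 to 92.4). The regions had a median width of 4827.5 bp (4439 to 5282) in clusters and 3178 bp (2998 to 3298) at single peaks. A wide region can hold more than 1 peak, so the width and the grouping are not independent measures.

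The largest cluster had 8 far peaks within 19.8 kb at chr9:61511452-61531226, between Tle3 and Rplp1, whose nearest starts lay 264 and 241 kb from its centre. The peaks were 617 to 1068 bp wide and sat in 2 H3K4me1 regions, the wider of 16100 bp. A cluster of 7 reached from the last part of Nfatc1 past its end over 36.8 kb. Another 7 lay within 33.4 kb at chr6:144838578-144871974, about equally far from Sox5 (125 kb) and Bcat1 (126 kb). The 6 at chr5:64863022-64890367 lay 136 kb from Tbc1d1 and 318 kb from Klf3, a Kruppel-like factor gene, mostly in a single H3K4me1 region of 23635 bp. The 6 at chr10:19213982-19237159 lay 86.2 kb upstream of Ifngr1, in H3K4me1 regions of up to 19445 bp.

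Far peaks were denser in gene bodies than between genes. Their midpoints lay in a gene body in 468 cases (34.9%, 32.4 to 37.5), 457 in introns and 11 in exons, and 873 (65.1%) were intergenic. Gene bodies made up 24.0% of the sequence 50 kb or more from a start. The density was 2.06 per Mb (1.88 to 2.26) in gene bodies and 1.21 per Mb (1.14 to 1.298) between genes. These densities were not adjusted for distance to a start, with which the density of far peaks fell. Of the far peaks in gene bodies 93.2% (90.5 to 95.1) touched H3K4me1, and of those between genes 94.7% (93.04 to 96.03), in regions with median widths of 3628 and 3501.5 bp. For 317 of 454 far peaks inside a protein-coding gene (69.8%), that gene also had the nearest protein-coding start.

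The protein-coding bodies with the most far peaks were, after the readthrough model Gm20388 that spans 4435 kb of chromosome 8 and many other genes (16 far peaks), Cdyl2 with 7, and Abtb2, Ankrd44, Nck2, Nfatc1 and Wwox with 6 each. Nck2 encodes an adaptor that couples receptors to the actin cytoskeleton. All of these far peaks touched H3K4me1.

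By nearest start, 713 protein-coding genes were assigned at least 1 far peak, 12.8% (11.9 to 13.7) of the 5574 that had any far sequence nearest to them. Of the 713, 440 had 1 far peak, 146 had 3 or more and 46 had 5 or more, the last with 309 far peaks between them. The far peak lay upstream of the nearest protein-coding start in 635 cases (47.4%) and downstream of it in 706. Some upstream ones lay inside the assigned gene, upstream of an internal start, as all 3 of Rora did. The assignment is by position only: for 605 far peaks (45.1%) another protein-coding gene had a start on the opposite side at under 2 times the distance.

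Id2, the inhibitor of E-protein transcription factors that NK cells need to develop, had the most far peaks of any gene. All 25 lay upstream of it, 59.5 to 360 kb from its start with a median of 174 kb, and 24 held a RUNX sequence. All touched H3K4me1, in 17 regions of up to 11600 bp. The peaks were strung along the interval rather than stacked, the largest cluster holding 4. The same interval held 1 other Runx3 peak, and further peaks lay 0.227 and 0.897 kb downstream of the Id2 start, outside the interval. Of its 592 kb, 0.492 Mb is far sequence. Per Mb of far sequence nearest to Id2 there were 48.1 far peaks (31.1 to 70.9), against 1.42 over all genes. Id2 was named for its count of far peaks, and the interval does not allow for that choice.

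Ets1, which encodes an ETS factor required for NK cell development, had 13 far peaks. These lay downstream, 120 to 384 kb from its nearest start and past the end of the gene, in 9 H3K4me1 regions of up to 14142 bp, and all 13 held a RUNX sequence. Btg1, an antiproliferative gene, had 12 far peaks, 9 upstream at up to 291 kb and 3 downstream at up to 170 kb, in 7 regions of up to 17202 bp. Rplp1, a ribosomal stalk protein gene, had 11, of which 10 lay 206 to 250.4 kb away. Tab2, an adaptor of the TAK1 kinase, had 10 far peaks, all upstream at 81.5 to 266 kb, each in an H3K4me1 region of its own.

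**Figure D4:**
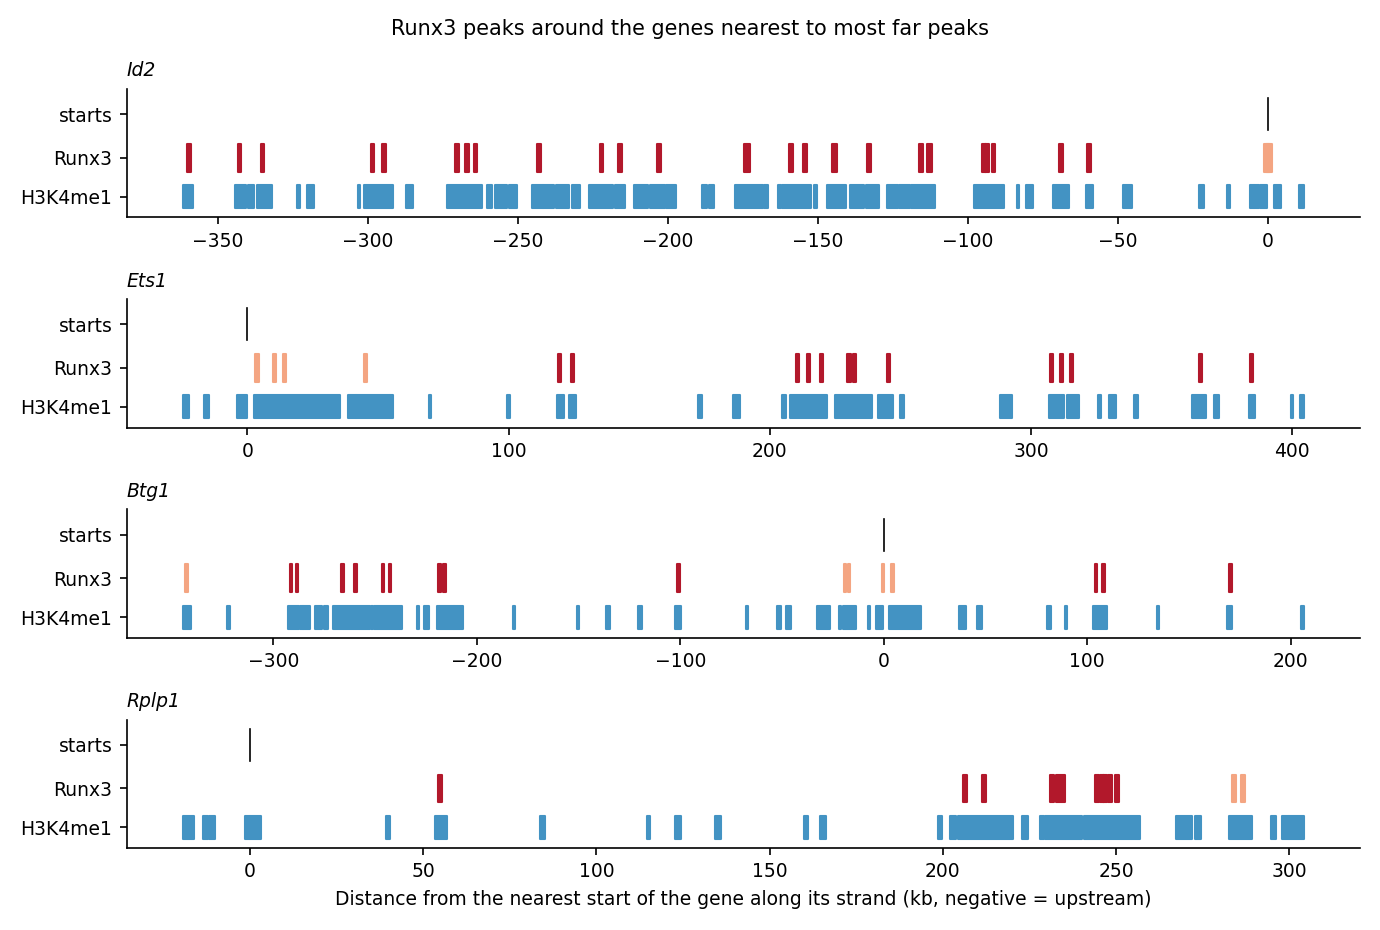
Runx3 peaks (middle row of each panel), H3K4me1 regions (lower row) and annotated transcript starts (upper row) around Id2, Ets1, Btg1 and Rplp1, by distance in kb from the start of the gene that lay nearest to the far peaks, along the gene's strand. Far peaks nearest to the named gene are dark red and all other Runx3 peaks light; peaks are drawn at least 1.2 kb wide to be visible. The 25 far peaks of Id2 spread over 59.5 to 360 kb upstream, while 10 of the 11 of Rplp1 sat at 206 to 250.4 kb.

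Of the remaining genes with most far peaks, Amigo2, which encodes a leucine-rich repeat adhesion protein, had 9, all upstream at 64.2 to 223 kb. Fam113b starts on the other strand at 97077538, beside the Amigo2 start at 97077718, so position hardly separates these 2 genes. The body of Fam113b held 5 of the 9. Runx3 itself had 8 far peaks, 7 upstream at 50.6 to 78.0 kb and 1 downstream at 51.9 kb, in H3K4me1 regions of 5621 to 21916 bp. That gave 149 far peaks per Mb of the 0.0538 Mb of far sequence nearest to it (64.2 to 293). Runx3 too was among the genes picked by count, and its interval does not allow for that choice. Lpp, encoding a LIM protein of focal adhesions, and Tbc1d1, a GTPase-activating protein for Rab proteins, had 8 each. Tgfbr2, the type II receptor for TGF-beta, had 7, of which 6 lay 163 to 311 kb upstream. Ifngr1, the ligand-binding chain of the interferon-gamma receptor, had 7 at 61.7 to 97.3 kb upstream. Nfatc1, a calcium-responsive factor, had 7 at 74.5 to 110 kb downstream. All far peaks of these 12 genes touched H3K4me1.

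Gene lists of NK biology gave a view across roles, each read against the 12.8% of genes with far sequence that had a far peak and against 1.42 far peaks per Mb. The lists were chosen with earlier results of these data known, so they are not an independent choice of genes. Among transcription factors of NK cells and lymphocytes, 25 of the 33 genes with far sequence had a far peak (75.8%, 59.0 to 87.2), with a median of 3 per gene against 0 over all genes. The share and the median per gene were not adjusted for the amount of far sequence, 9.60 Mb for this list. The genes took 121 far peaks, 9.02% of the total, at 12.6 per Mb (10.5 to 15.1), and all 121 touched H3K4me1. At least 3 far peaks were assigned to 17 of these genes.

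Within that list the counts were led by Id2, Ets1 and Runx3, given above. Eomes, the T-box factor of NK cell maturation, had 6 far peaks, all upstream at 61.6 to 136 kb and in 6 H3K4me1 regions of up to 13638 bp. Irf8, an interferon regulatory factor, had 6 downstream at 70.8 to 137 kb, and Irf2 had 5. Runx1, the closest relative of Runx3 in lymphocytes, had 5 upstream at 54.8 to 298 kb. Maf had 5 far peaks downstream at 180 to 474 kb and Myc 5 downstream at 117 to 469.8 kb. Tox, a factor of NK and T cell development, had 5, of which 3 lay in its own gene body and the others upstream of the gene. Foxp1 and Satb1 had 4 each, and Foxo1, Gata3 and Rora 3 each. Some of these far peaks lay inside other genes. All 4 of Foxp1 were in introns of Eif4e3, and the 6 of Irf8 were in introns of the readthrough model Gm20388. Some of Maf, among them the one at 474 kb, were in introns of Wwox and also count among the far peaks of its body. The counts of the list go by nearest start and include such peaks. The list also holds genes that are not DNA-binding activators: Smad7, an inhibitor of TGF-beta signalling, had 5, and Zfp36l2, which binds RNA, had 5 in a single cluster at 67.5 to 72.8 kb within 1 H3K4me1 region of 10860 bp.

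Among cytokines and cytokine receptors 6 of 11 genes with far sequence had a far peak (54.5%, 28.0 to 78.7), with 20 far peaks in all and 31.0 per Mb (18.9 to 47.9), of which Ifngr1 and Tgfbr2 took 7 each. Ifng, the gene of the main cytokine that NK cells secrete, had 2 downstream at 109 and 158 kb. Signalling kinases, phosphatases and regulators had far peaks at 11 of 21 genes (52.4%, 32.4 to 71.7), 29 in all and 11.5 per Mb (7.73 to 16.6). After Nfatc1, these were Prkch, a protein kinase C gene, with 5 in its own gene body at 72.0 to 136 kb, Pik3r1, the regulatory subunit of phosphoinositide 3-kinase, with 4 at 228 to 354 kb, and Tnfaip3, an inhibitor of NF-kB signalling, with 3. Of the chemokine receptor, integrin and trafficking genes 3 of 7 had a far peak: the integrin chain Itgb1 had 4 at 90.4 to 136 kb upstream, and the receptors Cxcr4 and S1pr1 had 1 each.

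The genes that carry out NK recognition and killing had few far peaks by count, but also little far sequence. Of 36 NK receptor and adaptor genes 5 had far sequence, and 1 of these, Sh2d1a, the adaptor of SLAM family receptors, had a single far peak at 78.2 kb upstream. Of 17 cytotoxic effector genes 4 had far sequence, and 1 of these, Fasl, the ligand of the death receptor Fas, had a single far peak at 117 kb. With 1 far peak each, densities were 2.09 per Mb (0.0530 to 11.7) for receptors and adaptors and 18.8 (0.477 to 105) for effectors. The intervals hold the value over all genes, 1.42 per Mb. Neither share, 1 of 5 or 1 of 4 genes, lay below the 12.8% over all genes. The intervals of these shares were wide, 3.62% to 62.4% and 4.56% to 69.9%, and hold that value too.

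Of the lists chosen as contrasts, only that of long neural genes had far peaks. No far peak was nearest to the 5 B cell identity genes or the 4 myeloid identity genes with far sequence, and their 0.965 and 0.937 Mb of far sequence allow up to 3.82 and 3.94 far peaks per Mb (upper ends of the Poisson intervals), so that a density like the value over all genes was not detectable as different. Of the 30 long neural genes, all with far sequence, 5 had a far peak (16.7%, 7.34 to 33.6), next to 12.8% over all genes. These took 10 far peaks in 35.5 Mb, 0.282 per Mb (0.135 to 0.518), 5 of them in Nrxn3 and 2 in Magi2, which encode proteins of synapses, and 8 of the 10 touched H3K4me1. All intervals of 1000 kb or more between neighbouring starts held 0.297 far peaks per Mb (0.217 to 0.396). Whether the neural genes differed from other large gene-poor stretches was not tested.

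**Figure D5:**
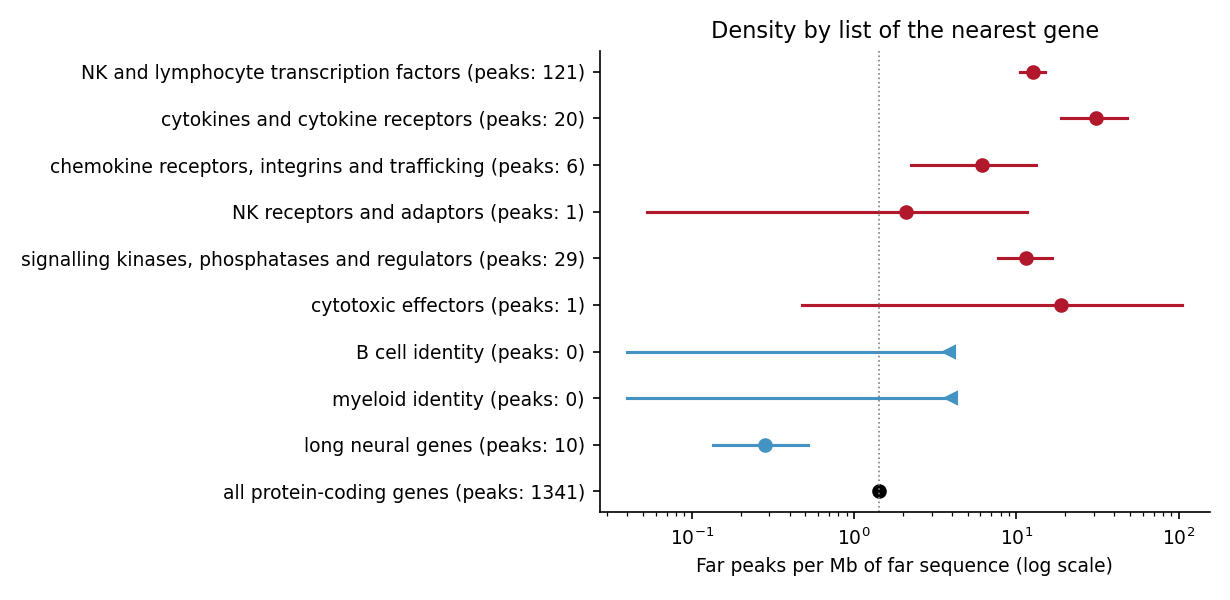
Far Runx3 peaks per Mb of the sequence 50 kb or more from a start that lay nearest to the genes of each list, on a log scale, with 95% Poisson intervals. Red marks NK and lymphocyte lists, blue the contrast lists and black all protein-coding genes, whose value is dotted. Arrowheads mark the upper limits of lists with 0 far peaks, and their lines are cut at the left edge. Transcription factors stood at 12.6 per Mb and long neural genes at 0.282, against 1.42 over all genes.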

How the data were processed

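Chromatin of resting splenic NK cells was precipitated with antibody to Runx3, antibody to H3K4me1 or non-immune serum. The authors aligned unique reads to mm9 with ELAND (CASAVA 1.7 in the submitters' processing notes), joined repeat experiments (by the study's methods; the labels speak of a first experiment) and called peaks against the serum control with MACS. The deposited lists hold coordinates only (15524 Runx3 peaks and 49902 H3K4me1 regions), without height, score or q-value, so depth per region is unknown. One H3K4me1 region ends 23 bp past a chromosome end and was kept. The labels name an NKp46 sort and the study's methods a DX5 selection, and which applies was not settled.

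Distances ran from peak midpoints to the nearest of 86803 unique transcript starts (GENCODE M1). Overlap meant at least 1 bp. Near-identical copies were sought with minimap2 2.31 (k 19, w 10). Shares carry Wilson, densities exact Poisson, medians order-statistic and differences of shares Newcombe intervals, which treat peaks and windows as independent. Scripts used Python 3.11.15, numpy 2.4.6 and scipy 1.17.1 and were tested on simulated regions. Far peaks and the 9 gene lists were chosen with earlier results of these data known. By rule, genes were named if among the 12 nearest to most far peaks (ties by distance), if on a list with 3 or more far peaks or among its 2 highest, or if at a region of the top 5 by distance, width, cluster, H3K4me1 width or interval. In all, 2 listed genes had no match in the annotation. Host genes with 6 or more far peaks were named after their values were seen. The alternatives tried were other sets of starts, distance from the edge, no X chromosome, wider peaks only, no copied peaks, other overlap rules, H3K4me1 widths, cluster gaps and sequence windows.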

Additional observations from a re-analysis of the deposited data

How the results depend on the processing

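Of 58 alternatives, 37 left the value inside the interval first given (counts within 1.5 times) and 21 moved it. With starts of protein-coding transcripts only, far peaks numbered 2280, their density was 1.71 per Mb, 40.6% lay in gene bodies and 17.9% of intervals held one. With 1 start per gene the density was 1.81 per Mb, 51.8% lay in gene bodies, 45.1% in clusters and 13.7% of intervals were occupied. The 621 far peaks wider than the median of all Runx3 peaks touched H3K4me1 in 98.7%, in regions with a median of 4129 bp, lay in gene bodies in 31.4% and in clusters in 30.3%, and exceeded their windows in RUNX sequence by 16.8 percentage points. Over all far peaks with a window the RUNX excess was 49.4 points in the central 200 bp. With only the wider H3K4me1 regions 86.9% of far peaks were marked and 38.3% of far regions touched a peak, and merging regions within 1 kb gave a median width of 3943 bp. A gap of 5 kb left 25.8% of far peaks in clusters and one of 25 kb put 52.3% there. Without the X chromosome 12.1% of intervals were occupied. The causes of these shifts were not tested, apart from those built into an alternative (fewer or other starts, peaks or regions). Leaving out the readthrough model Gm20388, an alternative chosen after seeing the data, gave 33.9% in gene bodies, inside the first interval.

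No paired analysis was possible because each antibody had 1 sample and 1 list of regions. With no replicates and no peak scores, the spread between mice and the strength of a peak are unknown, and nearest-start assignment does not identify a target gene.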
